A study of Mus musculus with 6 samples.

Results

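The Piwi and Argonaute family comprised 7 genes among 48577 genes in the count files. They were chosen by gene symbol, with earlier results of these data known. They were Piwil1, Piwil2 and Piwil4 of the germline Piwi branch and Ago1, Ago2, Ago3 and Ago4 of the Argonaute branch. All 7 had a row in every file, and 5 of them (Piwil4 and the 4 Argonautes) were among the 13175 genes kept by a filter on low counts. RNA came from lungs of Miwi2tdTomato mice of strain C57BL/6, in which the fluorescent protein tdTomato reports Piwil4, the gene of the Piwi protein MIWI2. All 6 libraries carry that reporter background. Lung cells without CD45, a leukocyte surface protein, and with EpCAM, an epithelial surface protein, were sorted into a tdTomato-negative and a tdTomato-positive fraction from each of 3 mice. The labels call both fractions multiciliated cells, and neither a gate for cilia nor the animals' age, sex or reporter zygosity is given in the sources used here.

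Proteins of this family hold a small RNA and use it to find other RNAs by base pairing. Argonautes carry microRNAs in most tissues and repress messenger RNAs, whereas Piwi proteins carry piRNAs, which in the mouse are best known from the germline, where they silence transposons. MIWI2, the product of Piwil4, is known as the nuclear Piwi protein of fetal male germ cells that directs DNA methylation to transposons. MILI, the product of Piwil2, makes and amplifies piRNAs in the cytoplasm, and MIWI, the product of Piwil1, acts in later spermatogenesis.

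The members lie at separate loci apart from 1 cluster. On GRCm38 with GENCODE M21, Piwil4 lies on the minus strand of chromosome 9 (14696230 to 14740733), Piwil1 on the plus strand of chromosome 5 (128702524 to 128755474), and Piwil2 on the minus strand of chromosome 14 (70372477 to 70429383). Ago3 (126331704 to 126429556), Ago1 (126435012 to 126468583) and Ago4 (126489541 to 126533472) follow each other on the minus strand of chromosome 4. Ago2 lies on the minus strand of chromosome 15 (73095844 to 73184935). Windows before RefSeq start sites of 3 members are shown to compare a Piwi gene that was measured in lung cells, a Piwi gene without a read and an Argonaute. Each sequence is the 250 bases before a RefSeq start site (GRCm38.p6), written 5′ to 3′ on the gene's strand, with CpG dinucleotides in capitals.
Piwil4 (chr9:14740673-14740922, minus strand): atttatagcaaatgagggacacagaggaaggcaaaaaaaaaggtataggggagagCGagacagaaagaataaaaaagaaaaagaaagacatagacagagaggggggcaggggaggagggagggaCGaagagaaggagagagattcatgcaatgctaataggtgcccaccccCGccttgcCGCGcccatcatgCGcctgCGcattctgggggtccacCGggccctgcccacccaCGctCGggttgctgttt
Piwil1 (chr5:128735996-128736245, plus strand): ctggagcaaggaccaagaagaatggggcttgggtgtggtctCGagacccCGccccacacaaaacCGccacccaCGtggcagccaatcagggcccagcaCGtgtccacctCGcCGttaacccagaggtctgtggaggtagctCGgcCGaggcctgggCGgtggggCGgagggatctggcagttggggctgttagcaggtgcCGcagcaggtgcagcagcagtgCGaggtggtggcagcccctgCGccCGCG
Ago1 (chr4:126468632-126468881, minus strand): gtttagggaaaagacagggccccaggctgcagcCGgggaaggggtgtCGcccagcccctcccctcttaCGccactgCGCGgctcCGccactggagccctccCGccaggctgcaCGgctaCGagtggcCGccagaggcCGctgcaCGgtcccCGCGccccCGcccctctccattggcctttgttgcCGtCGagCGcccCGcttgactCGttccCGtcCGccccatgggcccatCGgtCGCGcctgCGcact

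The Piwil4 window held 10 CpG dinucleotides, the Piwil1 window 16 and the Ago1 window 26, against a median of 6 over the 32851 windows of the RefSeq table. The Ago3 and Ago4 windows held 27 and 46. Of the 5 members with an entry there, the 3 Argonautes were thus denser in CpG than both Piwi genes. The Piwil4 window consisted of A or G at 65.6% of its bases, and the Ago1 window at 41.6%. The RefSeq start of Piwil1 lies inside the longer GENCODE model given above, so its window is not the one before that model's first exon. The Piwil4, Ago3 and Ago4 windows also overlap the first bases of their GENCODE models. Ago1 has a second RefSeq start, with 28 CpG in its window (chr4:126468584-126468833), which lies directly before the GENCODE model. A second RefSeq start inside Piwil4 had no CpG in its 250 bases (chr9:14718388-14718637). Windows were searched on both strands for the MYB core TAACNG, the RFX half-site GTTGCC and the FOX core TGTTTAC, which 19.8%, 10.4% and 3.17% of all windows held. The Piwil1 window held 2 matches to TAACNG, the Ago1 window held 1 match to GTTGCC, and the window at the first Piwil4 start held none of the 3 motifs. The internal Piwil4 start had 1 match to TGTTTAC. A match of letters is no evidence that a factor binds, and no match says only that these letters are not in this window.

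The libraries held 5330584 to 6326395 counts in genes. Levels are given in CPM, counts scaled to a common total with TMM library factors, and a gene without a read could lie at up to 0.475 to 0.585 CPM, the level of 3 counts, in a library. Such limits cover counting error only, because the RNA was amplified and no molecular identifiers are named in the sources used here. The sum of 19 multiciliated cell markers was 9503 to 9921 CPM in negative and 9526 to 9785 CPM in positive libraries, and none of these markers was without reads in either fraction. In the fit paired by mouse, described below, 3 of the 18 kept were called, all higher in the positive fraction. These were Foxj1 (2.30-fold, edgeR adjusted p = 0.000129), Tppp3 (2.03-fold, edgeR adjusted p = 0.000729) and Cfap126 (1.62-fold, edgeR adjusted p = 0.0301). None was called without pairing, where 12 of the 18 had estimates above 0 and 6 below. Among the lower ones, in the paired fit, were Ccdc39 (0.74-fold, edgeR adjusted p = 0.105) and Dnah12 (0.78-fold, edgeR adjusted p = 0.137). The sum of 12 alveolar type 2 markers was 6744 to 8118 CPM in negative and 593.9 to 1162 CPM in positive libraries, and 7 of the 12 were lower by the unpaired test used below and 9 by the paired one. The sum of 10 club cell markers was 4886 to 8304 CPM in negative and 8598 to 21890 CPM in positive libraries, with 0 of 9 kept called by the unpaired test and 5 higher by the paired one, among them Scgb1a1 (4.25-fold). Leukocyte markers (10 genes) summed to 176.7 to 1296 CPM in negative and 30.01 to 225.1 CPM in positive libraries. Lyz1 made up most of that sum in every negative library, at 306.7, 1185 and 156.6 CPM. Its positive values were 22.46, 178.5 and 11.75 CPM, and there it was the larger part for mouse 2 only. Ptprc was at 4.875 to 50.71 and 2.196 to 9.968 CPM. Mesenchymal markers (9) summed to 26.1 to 127.8 and 12.1 to 51.9 CPM, endothelial markers (8) to 12.9 to 19.0 and 12.1 to 28.5 CPM, and alveolar type 1 markers (10) to 321.0 to 391.5 and 326.3 to 413.6 CPM. Basal cell markers (6) summed to 10.1 to 18.3 and 1.01 to 2.06 CPM, with no read of Trp63 or Krt17 in the positive libraries. Trp63 was lower in both fits, and the paired fit also called 2 alveolar type 1 and 2 leukocyte markers lower. Of all genes kept, the unpaired test called 0.622% and the paired one 3.15% in either direction. The negative fraction therefore held more alveolar type 2 RNA than the positive one, and the part of these marker differences in the results below was not tested. In sorted bulk RNA, fewer expressing cells and less RNA per cell cannot be told apart.

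Piwil4 was the 1 family member that passed the test between the fractions. The reporter row, tdTomato, had 0 reads in each negative library and 37, 16 and 18 reads in the positive libraries of mice 1, 2 and 3. For Piwil4 the negative libraries gave 227, 156 and 234 reads and the positive libraries 599, 605 and 701. On the CPM scale these were 44.0, 29.97 and 45.6 against 101.2, 95.7 and 111.3. The lowest positive library lay above the highest negative one, a separation upward that 8.29% of all genes kept also had. In log2 the positive fraction exceeded the negative one by 1.36 ± 0.208 (SE; adjusted p = 0.0120 by edgeR's quasi-likelihood test), or 2.58-fold with a 95% interval of 1.88 to 3.54. Of all genes kept, 0.622% passed this threshold of 0.05 in either direction and 0.0455% as higher. Within mice 1, 2 and 3 the level was 2.30, 3.19 and 2.44 times as high. As the sort was made on a reporter of this gene, the rise checks the sort and is not an independent observation.

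The negative fraction was not devoid of Piwil4 RNA. Its mean there was 39.9 CPM ± 8.62 (SD, n = 3), against 102.7 ± 7.92 in the positive fraction (SD, n = 3). Per kilobase of exon the negative mean was 7.41 CPM, above that of 68.3% of the genes kept, and the positive mean of 19.1 was above that of 87.7%. An antisense gene, Gm10706, overlaps 137 bases or 2.54% of Piwil4 exon sequence, and the strand setting of the counting is not given, so reads there cannot be told apart. Gm10706 itself had 2 to 5 reads in negative and 4 to 16 reads in positive libraries. The call for Piwil4 was lost when any of 3 of the 6 libraries was dropped. In edgeR fits that dropped 1 negative library it was lost for mouse 1 (adjusted p = 0.0651) and mouse 2 (0.0663). Dropping the positive library of mouse 3 (0.0752) also ended it, as did dropping both libraries of mouse 1, 2 or 3 (0.108, 0.130 and 0.165), while the log2 fold change stayed between 1.19 and 1.47. In the fit that pairs the libraries by mouse (a replicate block) it was 1.38 ± 0.184 (SE; edgeR adjusted p = 0.000223), and there the call was lost when mouse 3 was dropped (adjusted p = 0.0672) but not for mouse 1 or mouse 2. That fit called 3.15% of all genes kept.

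**Figure D1:**
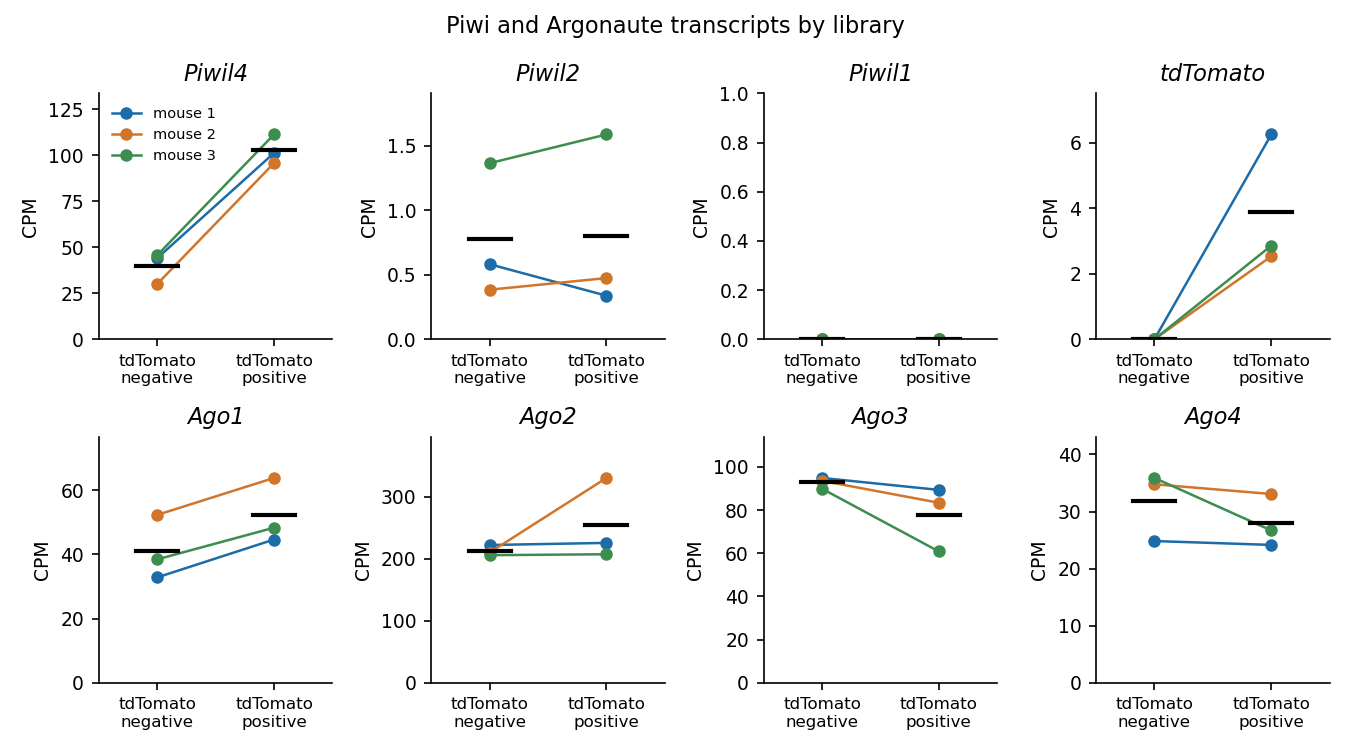
CPM (linear axes starting at 0) of the 7 family members and of tdTomato in each library; lines join the 2 fractions of a mouse and black bars are group means (n = 3). Piwil4 rose in all 3 mice from 29.97 to 45.6 up to 95.7 to 111.3 CPM, Piwil1 had no read, and Ago2 was highest in the positive library of mouse 2.

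The other Piwi genes were at or near 0. Piwil1 had no read in any of the 6 libraries. For Piwil2 the negative libraries of mice 1, 2 and 3 gave 3, 2 and 7 reads, and the positive ones 2, 3 and 10. Summed, these were 12 reads (95% Poisson interval 6.20 to 20.96) and 15 reads (8.40 to 24.7), intervals that overlap and cover counting error only. The library means of Piwil2 were 0.777 and 0.800 CPM, close to the floor of 3 counts, so no fold is given. In both fractions the libraries of mouse 3 held the most Piwil2 reads. A 0 in these files need not mean that a transcript is absent: Dgcr8, the partner of Drosha that microRNA processing requires, also had 0 reads in all 6 libraries.

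None of the 4 Argonautes passed the threshold in the model without a mouse term (edgeR), in the paired fit or by DESeq2, which called 1.86% of all genes kept, and none had an unadjusted p under 0.05 in the first of these. Ago2, the Argonaute best known for cutting its targets, was the most abundant, with 1145, 1093 and 1055 reads in negative and 1335, 2087 and 1305 reads in positive libraries. In CPM it was at 222.1, 209.9 and 205.7 against 225.5, 330.2 and 207.2. Only the positive library of mouse 2 stood above the rest, and the groups overlapped. Its log2 difference was 0.26 ± 0.192 (SE; adjusted p = 0.663, edgeR), an interval of 0.89 to 1.60-fold. Paired by mouse it was 0.23 ± 0.156 (SE, edgeR adjusted p = 0.514). In the unpaired fit without mouse 2 it was 0.017 (edgeR adjusted p = 0.989).

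Ago1, which like the remaining Argonautes binds microRNAs, had 169, 272 and 197 reads in negative and 264, 403 and 304 reads in positive libraries, or 32.8, 52.3 and 38.4 against 44.6, 63.8 and 48.3 CPM. The positive library was the higher one in each mouse, by 1.36, 1.22 and 1.26 times, but the mice differed among themselves by more than that and the groups overlapped. Its log2 difference was 0.34 ± 0.240 (SE; adjusted p = 0.638 from edgeR, 0.399 when paired by mouse), an interval of 0.88 to 1.83-fold. In both fractions the mouse order of Ago1 was the same, with mouse 2 highest and mouse 1 lowest.

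Ago3 and Ago4 had negative estimates. Ago3 was at 94.9, 93.5 and 89.9 CPM in negative and 89.3, 83.4 and 60.8 CPM in positive libraries. Its positive libraries all lay below its negative ones, as for 9.02% of all genes kept, though the highest positive and the lowest negative library were close. Its log2 difference was -0.25 ± 0.190 (SE; adjusted p = 0.667, edgeR), an interval of 0.63 to 1.12-fold. Paired by mouse it was -0.27 ± 0.174 (SE, edgeR adjusted p = 0.484). Ago4 was at 24.8, 34.8 and 35.9 CPM against 24.2, 33.1 and 26.7 CPM, with overlapping groups and a log2 difference of -0.19 ± 0.249 (SE; adjusted p = 0.825, edgeR), an interval of 0.60 to 1.28-fold. Paired by mouse the Ago4 difference was -0.18 ± 0.231 (SE, edgeR adjusted p = 0.758). For both genes the positive library of mouse 3 was the farthest below its negative partner. With library size alone in place of TMM factors the estimates were -0.00068 for Ago3 and 0.085 for Ago4, and each gene was lower in 1 of 3 mice. On that scale Ago1 was at 0.63 (edgeR unadjusted p = 0.0242, adjusted p = 0.222). Ago2 was at 0.52 there (edgeR unadjusted p = 0.0354, adjusted p = 0.251). All 5 members kept moved in 1 direction in all 3 mice with TMM factors, as did 38.6% of all genes kept. Library size alone moved the median of all genes from 0.029 to 0.29. Relative to that median Ago3 was at -0.28 and -0.29 and Ago4 at -0.22 and -0.20 under the 2 scalings. Ago1 was at 0.314 and 0.339 and Ago2 at 0.229 and 0.234 in the same way.

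**Figure D2:**
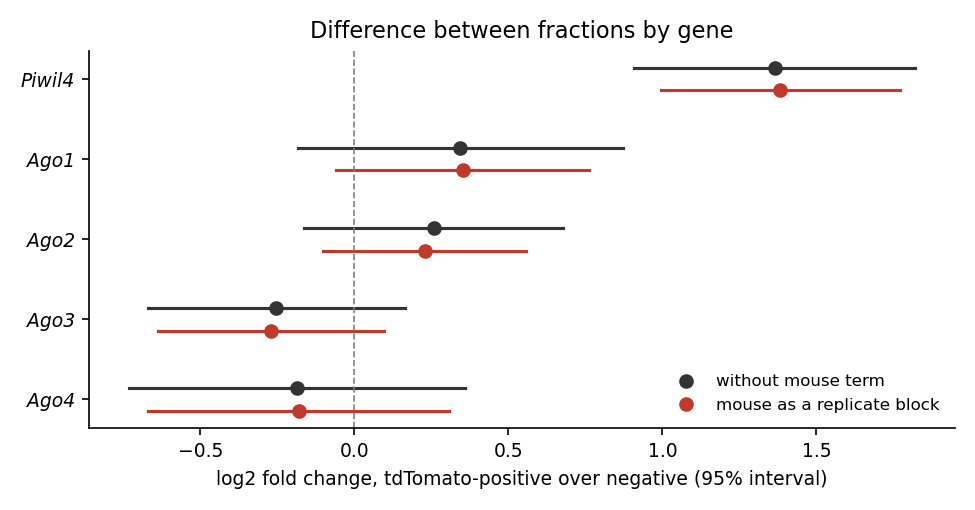
Log2 fold change of the 5 members kept by the filter, with its 95% interval, from the edgeR models without a mouse term (black) and with the mouse as a replicate block (red). The Piwil4 interval lies above 0 and the 4 Argonaute intervals include 0.

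Within libraries the balance between the branches can be read without any scaling between libraries. Piwil4 reads per Ago2 read were 0.198, 0.143 and 0.222 in negative cells of mice 1, 2 and 3 and 0.449, 0.290 and 0.537 in their positive cells. The ratio was 2.26, 2.03 and 2.42 times as high in the positive library of mice 1, 2 and 3. Against Ago3 it was 2.44, 3.58 and 3.61 times as high, against Ago4 2.36, 3.36 and 3.28 times, and against Ago1 1.69, 2.62 and 1.94 times. For each of these 4 ratios the lowest positive library lay above the highest negative one. The direction follows from the sort on Piwil4, and whether the fold change of Piwil4 differed from those of the Argonautes was not tested.

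Genes can be compared in level only per length, so CPM was divided by kilobases of exon. On that scale the order in negative cells was Ago2 (15.2 ± 0.608), Piwil4 (7.41 ± 1.60), Ago3 (5.60 ± 0.156), Ago1 (5.07 ± 1.23), Ago4 (4.58 ± 0.876), Piwil2 (0.147 ± 0.0981) and Piwil1 at 0 (CPM per kb, SD, n = 3 each). Ago2 stood above the rest in each negative library, whereas the libraries of Piwil4, Ago1 and Ago3 overlapped, as did those of Ago1 and Ago4. In positive cells Piwil4 was at 19.1 ± 1.47 and Ago2 at 18.1 ± 4.73 CPM per kb (SD, n = 3 each), which did not differ beyond their spread. Ago1 followed at 6.43 ± 1.25, Ago3 at 4.70 ± 0.908 and Ago4 at 4.03 ± 0.661 (SD, n = 3 each). The standing of Piwil4 among the Argonautes depends on the length used, because the exons of Ago2 span 14031 bases with a coding length of 2580 and those of Piwil4 span 5385 with 3012. The coding scale divides reads from all exon sequence by the coding length alone. It therefore raises genes with much noncoding exon sequence, such as Ago2 and Ago3. Per kilobase of coding length the order in negative cells put Piwil4 below Ago2 and Ago3, and within the spread of Ago1 and Ago4: Ago2 was at 82.4 ± 3.31, Ago3 at 35.3 ± 0.982, Ago1 at 15.5 ± 3.76, Piwil4 at 13.2 ± 2.86 and Ago4 at 12.3 ± 2.36 CPM (SD, n = 3 each). In positive cells Ago2 was at 98.6 ± 25.7, Piwil4 at 34.1 ± 2.63, Ago3 at 29.6 ± 5.73, Ago1 at 19.6 ± 3.82 and Ago4 at 10.8 ± 1.78 CPM on that scale (SD, n = 3 each).

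The Piwi genes made up 22.1%, 14.96% and 22.6% of the family's exon-length-scaled counts in negative cells of mice 1, 2 and 3, and 38.3%, 30.3% and 42.6% in positive cells. The gain was 16.1, 15.3 and 20.1 percentage points in mice 1, 2 and 3, a mean of 17.2 ± 2.56 (SD, n = 3). With Piwil4 alone in place of the Piwi genes the mean gain was 17.3, so it is a gain of Piwil4 and not of the whole branch. Its direction follows from the sort on a Piwil4 reporter. In unscaled reads the share was 10.6% (exact 95% interval 9.37 to 12.0), 7.21% (6.16 to 8.38) and 11.3% (9.96 to 12.7) in negative cells and 20.9% (19.5 to 22.5), 15.9% (14.7 to 17.1) and 24.8% (23.2 to 26.4) in positive cells. These intervals cover counting error only. In both fractions mouse 2 had the lowest Piwi share and mouse 3 the highest.

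**Figure D3:**
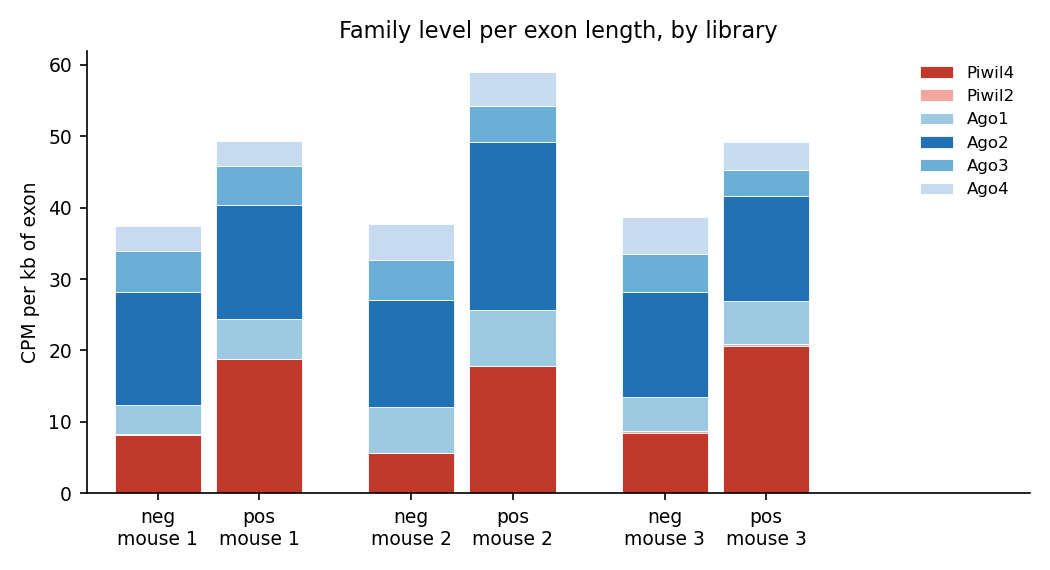
CPM per kilobase of exon of the family members in each library, stacked, with the Piwi genes in red at the base and the Argonautes in blue. The red part grew from 5.57 to 8.47 for Piwil4 in negative to 17.8 to 20.7 in positive libraries.

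As a sum, the 4 Argonautes stood at 374.6, 390.5 and 369.9 CPM in negative and 383.6, 510.4 and 343.0 CPM in positive libraries. The sum was higher in mice 1 and 2 and lower in mouse 3. Within the Argonautes, Ago2 held 49.96% ± 3.90 of the exon-length-scaled counts in negative and 54.1% ± 2.66 in positive libraries (SD, n = 3 each). The Ago3 share was 18.4% ± 1.06 against 14.3% ± 2.98 (SD, n = 3 each), lower in each mouse by 1.91, 5.39 and 5.09 percentage points, with groups that overlapped on this scale and did not overlap in unscaled reads. Ago4 held 15.03% ± 2.54 and 12.2% ± 1.22 (SD, n = 3 each), and Ago1 16.6% ± 3.19 and 19.4% ± 1.53 (SD, n = 3 each). None of these shares was given a test.

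Shared sequence between members was small. Of the 50-base words in the transcripts of each gene, 3.46% of those of Ago2 also occurred in transcripts of another gene, 1.53% of Ago1, 0.731% of Ago3, 0.29% of Ago4, 1.64% of Piwil4, 0.138% of Piwil1 and none of Piwil2. The words of Piwil4 were shared with Gm10706 alone. Ago1 shared words with Ago2 and Ago3, so a minor part of their reads could have been left out as aligned to several places. Ago2 exons overlap those of Chrac1 on the opposite strand by 219 bases, or 1.56% of Ago2 exon sequence. Eif2c5, an X-linked noncoding gene also called Ago5, had 1 read in 1 negative library and none elsewhere.

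The genes that serve the Argonautes did not pass the test in either direction. Of 17 microRNA biogenesis genes kept, of 20 listed, 0 were called, and their median log2 fold change was 0.079 beside 0.029 for all genes. Of all genes kept, 0.622% were called. In lists this short, here and below, 0 called is near that background and shows nothing about the pathways. The smallest p belonged to Xpo5, the exporter of microRNA precursors, at 0.49 (edgeR adjusted p = 0.536), to Tarbp2, a partner of Dicer, at 0.94 (edgeR adjusted p = 0.545) and to Srrt, a cap-complex partner of Drosha, at 0.39 (edgeR adjusted p = 0.570). Tarbp2 was low, with 12 to 19 reads in negative and 23 to 45 reads in positive libraries.

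Of 26 silencing effectors kept, of 27 listed, 0 were called and the median was 0.038. This list holds the GW182 proteins, which tether Argonautes to deadenylation, and the deadenylases and decapping factors themselves. Limd1, an adaptor between Argonautes and the silencing machinery, was at 0.67 (adjusted p = 0.251 from edgeR, 0.0802 when paired by mouse). Its reads numbered 238, 292 and 239 in negative and 579, 443 and 440 in positive libraries. The deadenylase subunits Cnot6l and Cnot3 had log2 fold changes of -0.43 (edgeR adjusted p = 0.428) and 0.69 (edgeR adjusted p = 0.521). Cnot3, like Ago2, had its highest count in the positive library of mouse 2, with 352 reads against 97 to 144 elsewhere.

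Of 13 chaperones and other Argonaute loading or turnover genes kept, of 14 listed, 0 were called and the median was 0.21. Ahsa1, an activator of Hsp90, was at 0.60 (edgeR adjusted p = 0.410), Fkbp5, an Hsp90 co-chaperone, at 1.40 (edgeR adjusted p = 0.448), and Zswim8, a ubiquitin ligase adaptor that acts in target-directed microRNA decay, at 0.46 (edgeR adjusted p = 0.537). Fkbp5 had 124 reads in the positive library of mouse 1 and 13 to 42 in the other 5 libraries.

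Genes that work with Piwi proteins in the germline were mostly below the filter. Of 24 piRNA partner genes 6 were kept, 0 were called, and the median was -0.53. Mael, Gtsf1 and Fkbp6 had no read in any library, and 13 of the 24 never reached 10 reads. Tdrkh, a Tudor protein of piRNA trimming, was counted at 10, 21 and 10 reads in negative and 0, 8 and 12 in positive libraries (log2 fold change -1.29, edgeR adjusted p = 0.632). Tdrd3, a Tudor protein with broad expression, was at -0.27 (edgeR adjusted p = 0.639), and Mybl1, the transcription factor A-MYB that drives piRNA genes in the testis, at -0.79 (edgeR adjusted p = 0.753). Ddx4, a germ cell helicase, had 24 reads in the positive library of mouse 3 and 0 to 4 in the rest, and it was chosen after its values were seen.

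Of 18 germ cell markers 3 were kept and 0 were called, and 6 had no read in any library. Gfra1, a GDNF receptor that marks spermatogonial stem cells and is not confined to them, had 375, 367 and 378 reads in negative and 617, 719 and 619 reads in positive libraries. The groups did not overlap in CPM, a separation upward that 8.29% of all genes kept also had. The log2 fold change of 0.54 did not pass (adjusted p = 0.246 from edgeR, 0.0945 when paired by mouse). Sycp3 was at -1.05 (edgeR adjusted p = 0.545) and Zbtb16 at -0.60 (edgeR adjusted p = 0.740). Over all 5 lists, 5 of 65 distinct genes kept, or 7.69%, had an unadjusted p under 0.05, beside 10.7% of all genes (2 silencing effectors, 2 loading or turnover genes and 1 germ cell marker). In the fit paired by mouse 11 of the 65, or 16.9%, had such a p, beside 15.9% of all genes. Of the 65, 0 passed in edgeR without or with the block or in DESeq2. These fits called 0.622%, 3.15% and 1.86% of all genes kept, so 0 of 65 says little about the pathways.

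**Figure D4:**
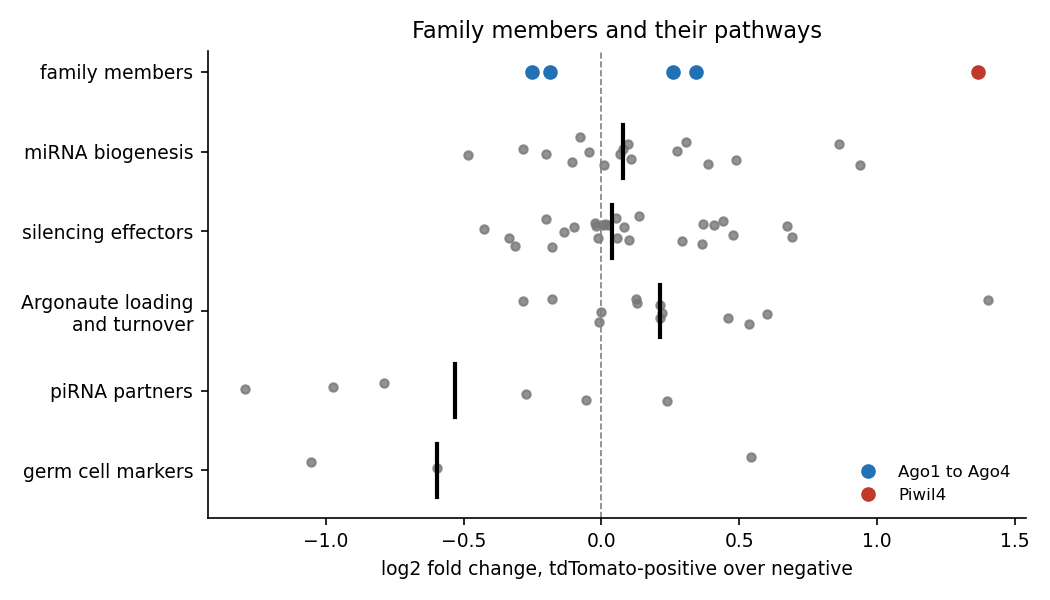
Log2 fold change (tdTomato-positive over tdTomato-negative, edgeR without a mouse term) of the 5 members kept and of each kept gene of the 5 pathway lists; grey points are genes and black bars list medians. Piwil4 lies at 1.36, the Argonautes between -0.25 and 0.34, and the list medians between -0.60 and 0.21.

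Within 250 kb of Piwil4, 6 genes were kept and 0 were called without or with the replicate block, and 2 had an unadjusted p under 0.05 in edgeR without the block, where 0.622% of all genes kept were called (3.15% with the block) and 10.7% had such a p. With 6 genes, 0 called is near that background and shows nothing about the locus. Amotl1, an angiomotin family gene on the side of the Piwil4 3′ end, had 40, 45 and 44 reads in negative and 1, 29 and 12 in positive libraries (log2 fold change -1.89, adjusted p = 0.386 from edgeR, 0.0655 when paired by mouse). 1700012B09Rik, on the other side beyond Fut4, had 45, 56 and 45 against 121, 91 and 176 reads (log2 fold change 1.15, adjusted p = 0.211 from edgeR, 0.0853 when paired by mouse). Fut4, a fucosyltransferase gene and the nearest coding gene upstream, was at -0.022 (edgeR adjusted p = 0.988). Cwc15 was at -0.13, Ankrd49 at 0.086 and Mre11a at -0.38, with edgeR adjusted p = 0.917, 0.974 and 0.626.

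The genes whose log2 CPM followed Piwil4 most closely over the 6 libraries, among 11182 ranked, were Sept5 (Pearson r = 0.994), Fam47e (0.992), Ost4 (0.985), Slc44a4 (0.982) and Osbpl5 (0.982). The 6 points share 3 mice and the difference between fractions, so a gene that separated the fractions evenly can rank high. None of these 5 genes was called, with edgeR log2 fold changes of 0.48, 0.40, 0.78, 0.59 and 0.26 and adjusted p of 0.335 to 0.720. The Argonautes had no such high r with each other. The family member closest to Ago1 was Ago2 (r = 0.634, rank 1043), and the one closest to Ago2 was Ago1 (rank 1355). The one closest to Ago3 was Ago4 (r = 0.198, rank 3559), and the one closest to Ago4 was Ago1 (r = 0.398, rank 2862). Ago1, Ago3 and Ago4 lie in the same cluster on chromosome 4. Over 6 libraries such values cannot show whether the Argonautes follow each other, within the cluster or outside it.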

How the data were processed

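The data are raw read counts per gene symbol as the authors deposited them, 1 file for each of 6 libraries from 3 mice. Per the submitters' processing notes, the tools included STAR 2.4.2a, HTSeq, cutadapt 1.7.1, DESeq2 and FastQC, with GRCm38.p4 and mm10 as builds. The strand setting of HTSeq is not given in the sources used here. The 5 HTSeq summary rows (reads in no gene were 41.0% to 49.4% of all rows' counts) entered neither library sizes nor tests.

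Genes were kept by filterByExpr (count minimum 10) and tested over all 13175 kept genes in edgeR 4.0.16 (R 4.3.3) by its two-sided robust quasi-likelihood test with TMM factors; Benjamini-Hochberg adjusted p under 0.05 were called. The model had no mouse term. The labels give 1 individual for both libraries of a number, so the numbers pair the samples; deviations from group means correlated at 0.263, 0.254 and 0.346 within mice, and a fit with mouse as a replicate block was run for each result. Alternatives were other normalizations and filters, DESeq2 1.42.0, limma-voom (limma 3.58.1) and leaving out libraries and mice. The script was tested on simulated data.

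Gene positions and exon lengths come from GENCODE M21 on GRCm38, and promoters from RefSeq (GRCm38.p6), which matched 5 of the 7 members. Of the genes kept, 96.7% had 1 gene model. The members and lists were chosen with earlier results of these data known. Named genes are the 7 members, up to 3 genes of smallest p per pathway list, the 5 genes most correlated with Piwil4 over 6 libraries (mean log2 CPM of at least 1, no Gm or Rik symbol), and genes within 250 kb of Piwil4.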

Additional observations from a re-analysis of the deposited data

How the results depend on the processing

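Over 20 alternatives, 3 of them added after seeing the data as blocked runs without 1 mouse and 1 as a blocked run without a filter, the log2 fold change of Piwil4 was 1.19 to 1.61 and 13 kept its call. It was 1.19 to 1.47 in runs without 1 library, 1.25 to 1.43 without 1 mouse (1.41 without mouse 3; adjusted p 0.0198 to 0.165 over both), and 1.24 to 1.46 in blocked runs without 1 mouse, of which that without mouse 3 lost the call (1.43, adjusted p = 0.0672). With the replicate block alone it was 1.38. No Argonaute was called in any of the 20, with adjusted p of 0.222 to 0.999, and Ago4 changed sign, to 0.085, with library size only. The number of genes called was 82, and 413 with no filter, 245 by DESeq2, 415 with the replicate block and 677 with the block and no filter; it was 34 to 113 in runs without 1 library, 22, 30 and 23 without mouse 1, 2 or 3, and 633, 380 and 59 in blocked runs without them. The number of called pathway genes was 0, and 2 in the blocked runs without mouse 1 (Fkbp4, Tdrd5), without mouse 2 (Limd1, Lsm14a) and without a filter (Fkbp4, Limd1). The gain of the Piwi share was 17.2 percentage points, 10.8 in unscaled counts and 9.73 per coding length, an alternative added after seeing the data; it was 15.7 to 18.1 without 1 mouse and 17.3 with Piwil4 alone. The cause of these shifts was not tested, apart from the scale of the share, which sets it by construction. Piwil1, which had no read, entered no test. Piwil2 was tested in the runs without a filter alone (log2 fold change 0.064 in edgeR, adjusted p = 0.983, and with mouse as a replicate block -0.030, adjusted p = 0.993). Whether depth limits these 2 genes was not tested.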
